A study of Mus musculus with 96 samples.

Results

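The genes described here are 10 of the 23955 genes in the expression table: Calr, Canx, Pdia3, Pdia4, Pdia6, P4hb, Hspa5, Hsp90b1, Sdf2l1 and Dnajb11. They were chosen by name, as chaperones and folding enzymes of the endoplasmic reticulum (ER), and all 10 were measured. The cells were 96 single bone marrow cells of C57BL/6 mice, labelled as ThPOK-/- granulocyte-monocyte progenitors (GMP, the marrow cells that give rise to granulocytes and monocytes). The mice are knockouts of Zbtb7b, which encodes the transcription factor ThPOK. The labels give no deleted exon, promoter or clone. The cells were enriched with CD117 beads, sorted, captured on a Fluidigm C1 chip and made into SMARTer and Nextera XT libraries. No animal is named and all cells have 1 genotype, so they were treated as 1 sample, cells were not counted as replicates, and no test was made. Wild-type cells were not analysed here.

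The authors' deposited annotation names 3 states: proNeu-1 for 12 cells, IG2 for 31 and Multi-Lin-1 for 26, with 27 cells without a state. The making of these states is not described, and they may rest on the same expression values, so differences between them are given as descriptions. Levels are log2(TPM + 1), where TPM is an abundance per transcript length that sums to 1e+06 in every cell. Detected means a TPM of at least 1. The SD is over cells throughout.

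Proteins bound for granules, the cell surface or secretion enter the ER unfolded. Calreticulin (Calr, soluble) and calnexin (Canx, in the membrane) hold newly made glycoproteins by their sugar chains. The protein disulfide isomerases Pdia3, Pdia4, Pdia6 and P4hb form and rearrange disulfide bonds, and Pdia3 works beside the 2 lectins. BiP (Hspa5) is the ER chaperone of the Hsp70 family and GRP94 (Hsp90b1) that of the Hsp90 family, while Dnajb11 and Sdf2l1 act together as partners of BiP. Granulocyte progenitors make large amounts of granule proteins, among them myeloperoxidase (Mpo) and the serine proteases Elane, Prtn3 and Ctsg, all of which pass through the ER. When unfolded protein builds up, the unfolded protein response raises the transcription of many ER chaperones, through factors such as ATF6 and XBP1 that act at the ER stress response element (ERSE) of their promoters.

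The members have the following places in GENCODE's annotation of GRCm38, and all are protein coding. Of the lectins, Calr (ENSMUSG00000003814) is on chromosome 8 from 84841850 to 84846934 on the minus strand, and Canx (ENSMUSG00000020368) on chromosome 11 from 50293961 to 50325673 on the minus strand. Of the isomerases, Pdia3 (ENSMUSG00000027248) is on chromosome 2 from 121413775 to 121438687 on the plus strand and Pdia4 (ENSMUSG00000025823) on chromosome 6 from 47796141 to 47813430 on the minus strand. Pdia6 (ENSMUSG00000020571) is on chromosome 12 from 17266545 to 17284770 on the plus strand, and P4hb (ENSMUSG00000025130) on chromosome 11 from 120560298 to 120573253 on the minus strand. Hspa5 (ENSMUSG00000026864) is on chromosome 2 from 34771970 to 34777547 on the plus strand and Hsp90b1 (ENSMUSG00000020048) on chromosome 10 from 86690209 to 86705509 on the minus strand. Sdf2l1 (ENSMUSG00000022769) and Dnajb11 (ENSMUSG00000004460) are both on chromosome 16, from 17130138 to 17132383 on the minus strand and from 22857845 to 22879634 on the plus strand.

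The choice of members used no sequence, so their promoters were read for what they share. RefSeq promoters of GRCm38.p6, each from 250 bases before to 50 bases after a start site, were found for 10 of 10 members. In 9 of them the end of the window lay in a GENCODE transcript in the same direction, the exception being Pdia4. The ERSE was searched on both strands as CCAAT, 9 bases of any kind and CCACG. It was found in 5 of 10 members and in 39 of 32851 promoters in all (0.119%). Its ends are common sequences: CCAAT alone is in 37.4% of promoters and in 10 of 10 members, and CCACG in 32.8% and in 9 of 10, with Pdia3 the member without one. Each ERSE includes a CCAAT and a CCACG, so the counts overlap, and that of Canx has another CCACG between them. The elements are shown with 12 bases on either side, 5′ to 3′ on the strand named, with the CCAAT and CCACG that bound the element in capitals.
Hspa5, chr2:34772013-34772055, plus strand: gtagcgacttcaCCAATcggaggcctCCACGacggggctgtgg
Calr, chr8:84847063-84847105, plus strand: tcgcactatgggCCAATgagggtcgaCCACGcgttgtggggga
Canx, chr11:50325788-50325830, minus strand: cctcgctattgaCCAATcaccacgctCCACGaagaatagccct
Pdia6, chr12:17266479-17266521, plus strand: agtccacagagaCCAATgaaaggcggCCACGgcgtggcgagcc
Hsp90b1, chr10:86705626-86705668, minus strand: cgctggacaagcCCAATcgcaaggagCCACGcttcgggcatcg
Hsp90b1, chr10:86705521-86705563, plus strand: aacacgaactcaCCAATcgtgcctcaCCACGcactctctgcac
Read along the gene, the element begins 65 bases before the RefSeq start site in Hspa5, 98 in Pdia6, 145 in Canx and 162 in Calr. In Hsp90b1 the elements begin 212 and 107 bases before it. In Hspa5, Pdia6, Canx and the first of Hsp90b1 the element reads in the direction of the gene. In Calr and the second of Hsp90b1 it reads against it, so the distance given there is that of the CCACG end. The element of Hspa5 lies inside the GENCODE bounds given above, which begin before the RefSeq start site.

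A second spacing, ATTGG, 1 base of any kind and CCACG (ERSE-II), was searched after the first search was seen. It was found in 1 member, Dnajb11, and in 12 of 32851 promoters (0.0365%). It is shown in the same way, and begins 7 bases after the start site.
Dnajb11, chr16:22857840-22857874, plus strand: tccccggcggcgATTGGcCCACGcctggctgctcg
Sdf2l1, the member whose level differs most between states below, held neither spacing. Its window is printed whole, on the strand of the gene, with each CCAAT and CCACG of either strand in capitals (ATTGG and CGTGG where they lie on the other strand).
Sdf2l1, chr16:17132334-17132633, minus strand: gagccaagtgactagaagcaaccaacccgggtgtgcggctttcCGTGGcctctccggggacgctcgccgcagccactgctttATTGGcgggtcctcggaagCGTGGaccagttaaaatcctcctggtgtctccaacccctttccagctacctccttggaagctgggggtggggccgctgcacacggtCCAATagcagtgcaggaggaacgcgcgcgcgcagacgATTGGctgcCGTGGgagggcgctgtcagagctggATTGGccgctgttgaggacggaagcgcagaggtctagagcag
It holds 4 copies of CCAAT and 3 of CCACG, 1 and 0 of them in the direction of the gene, at spacings other than the 2 searched. Pdia3, Pdia4 and P4hb also held neither element. A match says only that these letters stand in the window.

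**Figure D1:**
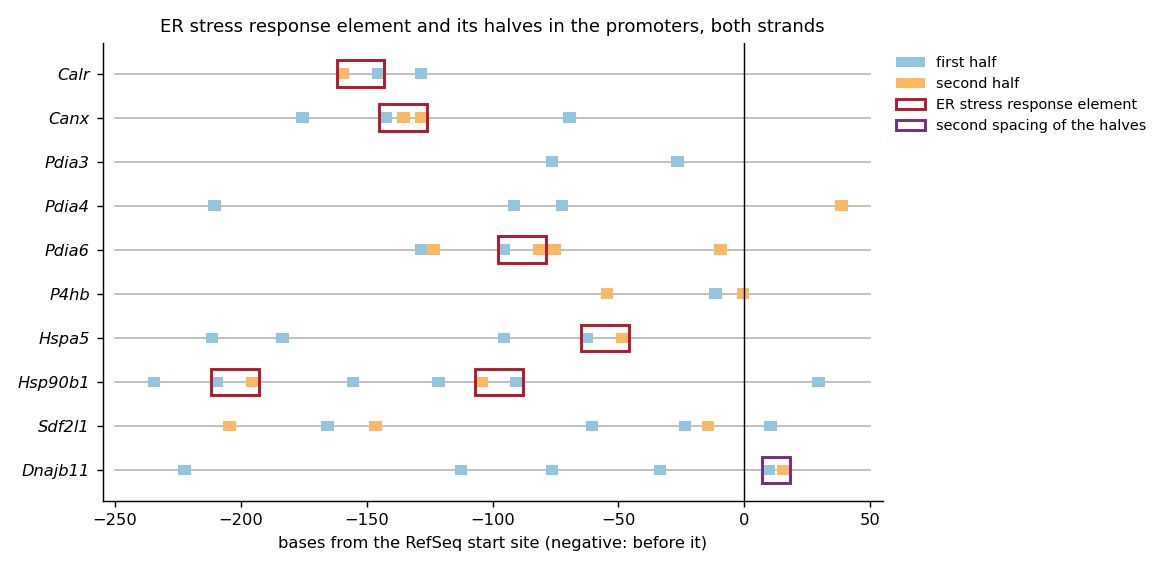
Positions of the ERSE (red frames), of its second spacing (purple frame) and of CCAAT (blue) and CCACG (orange) on either strand, in bases from the RefSeq start site (vertical line at 0) for each member. Frames are seen in Calr, Canx, Pdia6, Hspa5 and Hsp90b1 before the start site and in Dnajb11 just after it.

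Of the series as a whole, Zbtb7b was detected in 2 of 96 cells, with a highest TPM of 2.12. Of genes used to sort GMP, Kit was detected in 67 cells, Cd34 in 73 and Fcgr3 in 56. Ly6a, which encodes the stem cell antigen Sca-1 that GMP are sorted to lack, was detected in 28, including 12 of 12 proNeu-1 cells, with a highest TPM of 65.3. Reads per cell are not given, and the number of genes detected stands in for depth: its median was 4127.5 in proNeu-1, 3940 in IG2, 2613 in cells without a state and 2950 in Multi-Lin-1. In 3 cells, all without a state, 1 gene held over 10% of all TPM: Prg2, an eosinophil granule protein gene, 30% and 23.8%, and Anxa1 13.1%. Cell names carry a number, 078 or 079, whose meaning is not given, with 48 cells each and cells of every state in both.

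Transcripts of these chaperones were common in the sorted cells. Of the 10 members, 9 were detected in at least 50% of the 96 cells, against 9.48% of all genes, and Canx was detected in every cell, which held for 0.417% of all genes. Dnajb11 was the exception, in 46 of 96 cells (47.9%, Clopper-Pearson 95% interval 37.6 to 58.4%). At a TPM of 30 or more, 7 members were found in at least 50% of cells, against 4.46% of all genes. By group that count was 9 in proNeu-1 (7.69% of genes), 8 in IG2 (6.25%), 6 in cells without a state (2.94%) and 7 in Multi-Lin-1 (3.9%). Members detected in every cell of a group numbered 9 in proNeu-1 (3.34% of genes), 8 in IG2 (1.81%), 1 in cells without a state (0.539%) and 2 in Multi-Lin-1 (0.818%). All 10 members were detected together in 31 cells, of which 9 were proNeu-1, 18 IG2 and 4 without a state, and 0 Multi-Lin-1. These intervals and counts cover only the counting of cells in 1 sample.

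Over all cells, the order of the median levels was Canx (10.01), Calr (9.57), Pdia3 (9.17), Hspa5 (8.87), P4hb (8.65), Hsp90b1 (8.42), Pdia6 (8.23), Sdf2l1 (4.20), Pdia4 (2.05) and Dnajb11 (0.46). The first 7 differ between neighbours by less than the SD of any of them, which ran from 1.88 for Canx to 3.48 for Pdia6. Below them stands a step to Sdf2l1, Pdia4 and Dnajb11, the members that many cells list at 0 (29, 23 and 46 of 96 cells). Canx led in all 3 states and in cells without one. Sdf2l1 changed place most in level: its median was 8.14 in proNeu-1 and 7.83 in IG2, and 0 both in cells without a state and in Multi-Lin-1.

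The mean log2 value of the 10 members in a cell, here the chaperone score, was 8.59 ± 0.79 in proNeu-1 cells (n = 12), 8.22 ± 0.94 in IG2 cells (n = 31), 4.91 ± 2.19 in cells without a state (n = 27) and 5.55 ± 0.92 in Multi-Lin-1 cells (n = 26). It ran from 6.87 to 9.88 in proNeu-1, from 6.58 to 10.22 in IG2, from 1.23 to 9.31 in cells without a state and from 3.52 to 7.70 in Multi-Lin-1. The IG2 and Multi-Lin-1 cells overlapped in part: 23 of 31 IG2 cells were above the highest Multi-Lin-1 cell, and 24 of 26 Multi-Lin-1 cells were below the lowest IG2 cell. For the mean log2 value of 10 housekeeping genes these counts were 0 of 31 and 6 of 26. The members' median share of all TPM was 0.715% in proNeu-1, 0.759% in IG2, 0.231% in cells without a state and 0.294% in Multi-Lin-1.

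**Figure D2:**
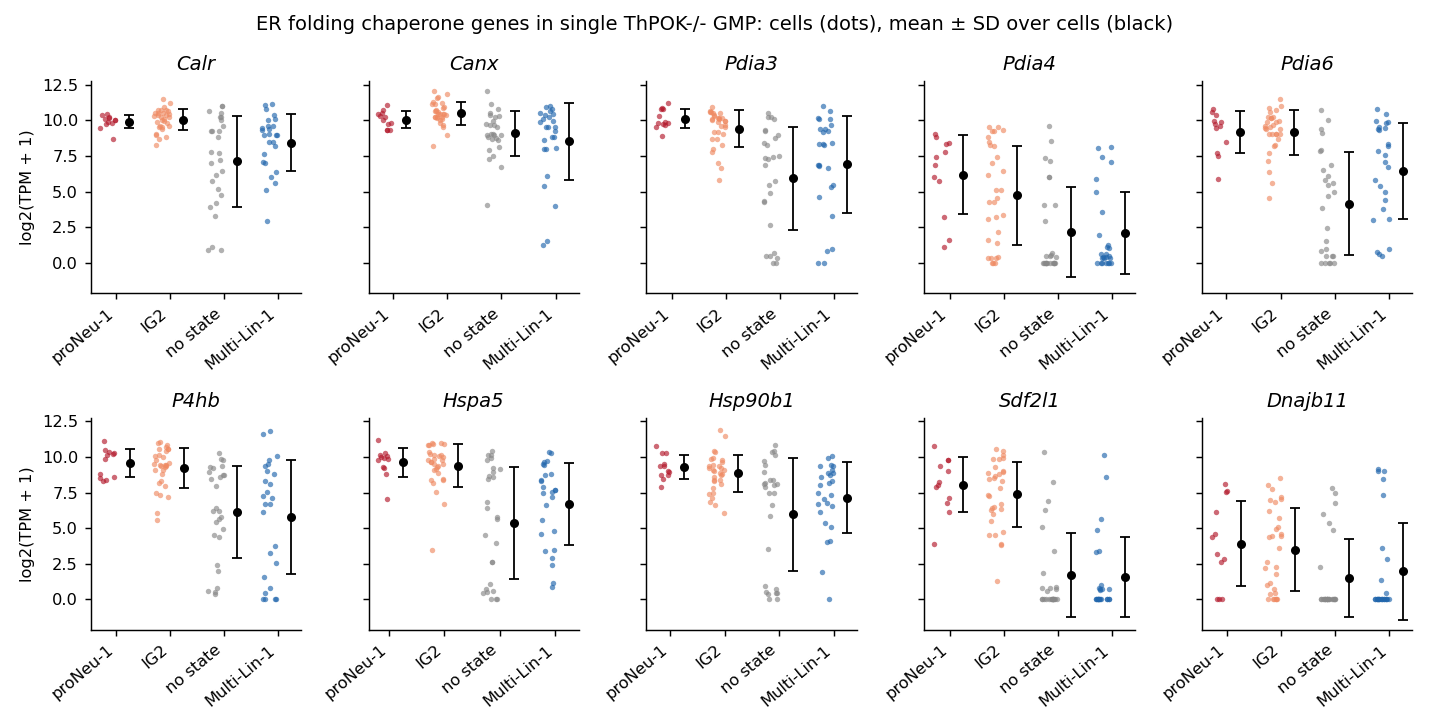
Level of each member, as log2(TPM + 1), in each cell (dots) of proNeu-1 (n = 12), IG2 (n = 31), no state (n = 27) and Multi-Lin-1 (n = 26), with the mean ± SD over cells in black. The proNeu-1 and IG2 cells sit high and close together for the 7 abundant members, while the cells of the other groups spread lower. For Pdia3 and Hsp90b1 both of those groups reach 0, and for Calr and Canx no cell is at 0.

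The first comparison asked how IG2 cells, rich in granule transcripts, differ from Multi-Lin-1 cells. All 10 members were higher by at least 1 in mean log2 level in IG2, which held for 31.1% of the 8044 genes detected in at least 10% of cells, while 0 were lower by at least 1 (2.54% of genes). The members' median difference was 2.58, beside 0.53 for all those genes. Among the 2270 genes detected in at least 50% of cells, which include 9 of the members, more were higher. There 49.3% of genes and all 9 members were higher by at least 1, and the median of the genes was 0.97. The direction was the same for all 10 members under each log2 scaling tried, but on the ratio of mean TPM Dnajb11 turned round.

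Of the lectins, Calr ran from 8.29 to 11.47 with a median of 10.21 in IG2, and from 2.93 to 11.11 with a median of 8.95 in Multi-Lin-1. Canx ran from 8.19 to 12.08 (median 10.45) in IG2, and from 1.28 to 10.98 (median 9.52) in Multi-Lin-1. For both, the IG2 cells kept to the upper part of the range while Multi-Lin-1 cells trailed downwards, with 9 of 26 below the lowest IG2 cell for Calr and 8 for Canx. The differences of the mean log2 levels were 1.6 for Calr and 2.0 for Canx. Mean TPM of Calr was 1184 in IG2 cells and 646 in Multi-Lin-1 cells (a ratio of 1.83), and that of Canx was 1674 in IG2 cells and 800 in Multi-Lin-1 cells (2.09).

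Among the isomerases, P4hb, which is also a subunit of the collagen prolyl 4-hydroxylase, had the largest difference, 3.45. It ran from 5.55 to 11.04 (median 9.44) in IG2, and from 0 to 11.85 (median 6.92) in Multi-Lin-1. The highest Multi-Lin-1 cell lay above all IG2 cells, while 10 of 26 Multi-Lin-1 cells lay below the lowest IG2 cell. Mean TPM was 843 in IG2 cells and 478 in Multi-Lin-1 cells, a ratio of 1.77. Pdia3, the partner of the lectins, averaged 9.42 ± 1.27 in IG2 and 6.91 ± 3.42 in Multi-Lin-1, a difference of 2.5. Pdia6 averaged 9.15 ± 1.56 in IG2 and 6.44 ± 3.38 in Multi-Lin-1, a difference of 2.70. Pdia4 was scarcer, at 4.74 ± 3.46 in IG2 and 2.08 ± 2.87 in Multi-Lin-1, and was detected in 24 of 31 IG2 cells and 11 of 26 Multi-Lin-1 cells. Its ratio of mean TPM was 4.62, the second highest of the members.

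Of BiP and its partners, Hspa5 ran from 3.50 to 11 (median 9.64) in IG2, and from 0.89 to 10.35 (median 7.58) in Multi-Lin-1. Its difference was 2.67 and its ratio of mean TPM 2.81. Hsp90b1 averaged 8.86 ± 1.32 in IG2 and 7.13 ± 2.49 in Multi-Lin-1, a difference of 1.73. In cells numbered 079 that of Hsp90b1 was 0.77, under 1, while the other 9 members stayed at 1 or more, against 33.9% of genes.

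Sdf2l1 had the largest difference of the members, 5.81, higher than that of 99.9% of the genes compared. It ran from 1.28 to 10.57 (median 7.83) in IG2, where 31 of 31 cells had it, and from 0 to 10.13 (median 0) in Multi-Lin-1, where 7 of 26 had it (26.9%, interval 11.6 to 47.8%). Of the Multi-Lin-1 cells, 20 lay below the lowest IG2 cell. The ratio of mean TPM was 6.30 (387 in IG2, 61.4 in Multi-Lin-1). Its partner Dnajb11 behaved otherwise. It was detected in 22 of 31 IG2 cells and in 8 of 26 Multi-Lin-1 cells (a difference of 1.53), but a few Multi-Lin-1 cells held much of it, up to a TPM of 563, and its mean TPM was 53.7 in IG2 and 81.4 in Multi-Lin-1 (a ratio of 0.66).

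Depth moves with this comparison, as the genes detected show. After regression of every gene on genes detected and label number, 3 members still differed by 1 or more, Sdf2l1 (3.09), P4hb (2.26) and Canx (1.27), against 6.9% of genes. In cells with 3000 to 4500 genes detected, 22 of IG2 and 10 of Multi-Lin-1, all 10 were higher by 1 or more in IG2. Their differences ran from 1.15 for Calr to 5.24 for Sdf2l1, and 21.7% of genes were higher by 1 or more. Centring each cell on 10 housekeeping genes moved the median of all genes from 0.53 to -0.28. There 7 members were higher by 1 or more, against 12.3% of genes, while 17.6% of genes were lower by as much.

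Markers of other lineages moved with it too. Of 10 erythroid and megakaryocyte markers, 0 were detected in at least 50% of IG2 cells and 2 (Gata1 and Car2) in Multi-Lin-1. Their summed TPM ran from 0 to 1243 (median 9.08) in IG2, and from 0.5 to 6593 (median 633) in Multi-Lin-1, while the adult globin gene Hbb-b1 was at 0 in every cell. Of 10 monocyte markers, 1 was detected in at least 50% of IG2 cells and 0 in Multi-Lin-1, with a summed TPM of 0 to 3761 (median 221) in IG2 and 0 to 484 (median 6.57) in Multi-Lin-1, and Fn1 at 0 in every cell. Of 8 secondary granule and neutrophil markers, 0 were detected in at least 50% of the cells of either, with a median summed TPM of 19 in IG2 and 0 in Multi-Lin-1, a highest of 1002 in IG2 and 78120 in Multi-Lin-1, and Ltf and Camp at 0 in every cell. The 9 stem and multipotent cell markers had a median of 485 in IG2 and 695 in Multi-Lin-1. The 6 T and NK cell markers had 2961 in IG2 and 1385 in Multi-Lin-1, with only Nkg7 in at least 50% of cells and Cd3e and Cd3g at 0 in every cell. Markers of dendritic cells (7), eosinophils (4) and stroma and endothelium (6) had medians under 12 in each group. The part of these lists in the result was not tested.

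The second comparison set proNeu-1 beside IG2, both rich in granule transcripts. Of 10 members, 1 was higher by at least 1 in proNeu-1 (13.6% of genes) and 0 were lower by at least 1 (10.2% of genes). These counts are near the shares of all genes, so nothing is read from them. The member that was higher was Pdia4, which ran from 1.10 to 9.01 (median 7.14) in proNeu-1, and from 0 to 9.55 (median 4.52) in IG2. Its difference was 1.45, and it was detected in 12 of 12 proNeu-1 cells and 24 of 31 IG2 cells. On mean TPM the groups were close, 188 in proNeu-1 and 171 in IG2. The other members differed by between -0.46 (Canx) and 0.70 (Pdia3), each within the SD over cells of both groups except Pdia3, whose SD was 0.69 in proNeu-1 and 1.27 in IG2.

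Granule protein transcripts did differ between these states. The mean log2 value of 9 granule protein genes (Mpo, Elane, Prtn3, Ctsg, Prss57, Lyz2, Fcnb, Srgn and Ctsc), here the granule score, was 9.41 ± 0.82 in proNeu-1 and 8.16 ± 0.95 in IG2, a difference of 1.25, beside 0.37 for the chaperone score. The median share of all TPM taken by these 9 genes was 7.41% in proNeu-1 and 4.10% in IG2, while that of the chaperones was 0.715% in proNeu-1 and 0.759% in IG2. Elane, the gene of neutrophil elastase, had a mean TPM of 32024 in proNeu-1 and 14943 in IG2, and Mpo one of 24977 in proNeu-1 and 14519 in IG2. Rescaling TPM without the granule protein genes changed the difference of the chaperone score to 0.43 and left 1 member higher by at least 1 (14.5% of genes). The 10 monocyte markers had a median summed TPM of 2717 in proNeu-1 and 221 in IG2, with 1 of 10 detected in at least 50% of the cells of either. Their summed TPM ran from 82.7 to 5799 in proNeu-1 and from 0 to 3761 in IG2. The marker behind the count was Ly6c2, in 12 of 12 proNeu-1 cells and 18 of 31 IG2 cells, with a mean log2 level of 11 in proNeu-1 and 4.63 in IG2. The secondary granule and neutrophil markers had 2 of 8 in at least 50% of proNeu-1 cells and 0 in IG2, with a summed TPM of 0.53 to 8938 (median 367) in proNeu-1 and 0 to 1002 (median 19) in IG2. Of these, S100a8 was detected in 10 of 12 proNeu-1 cells and 5 of 31 IG2 cells, and Cebpe in 10 of 12 proNeu-1 cells and 15 of 31 IG2 cells. The stem and multipotent cell markers had a median of 84.7 in proNeu-1 and 485 in IG2, and the T and NK cell markers 5441 in proNeu-1 and 2961 in IG2. The part of these lists was not tested.

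The third comparison took the 27 cells without a state. Their chaperone scores were spread more widely than those of any state: 13 lay within the range of Multi-Lin-1, 10 below it and 4 above it, and 7 within the range of IG2. Against Multi-Lin-1, 0 members were higher by at least 1 (5.21% of genes) and 4 were lower by at least 1 (12% of genes). Among the 2270 genes detected in at least 50% of cells, 22.7% were lower by at least 1, with the same count of 4 members. The 4 members were Pdia6 (-2.30), Calr (-1.33), Hspa5 (-1.33) and Hsp90b1 (-1.17). Pdia3 was just under that size at -0.998, and Canx had the highest difference at 0.58.

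Pdia6 ran from 0 to 10.71 (median 4.69) in cells without a state, and from 0.51 to 10.80 (median 7.32) in Multi-Lin-1. Calr ran from 0.87 to 11.02 (median 7.70) in cells without a state, and from 2.93 to 11.11 (median 8.95) in Multi-Lin-1. Hspa5 ran from 0 to 10.41 (median 5.78) in cells without a state, and from 0.89 to 10.35 (median 7.58) in Multi-Lin-1. For all 3 genes the upper ends of both groups met while the cells without a state reached lower. Hsp90b1 was detected in 19 of 27 cells without a state and 25 of 26 Multi-Lin-1 cells, but its median was 7.91 in cells without a state and 7.74 in Multi-Lin-1.

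The direction of this comparison was not the same among cells of like depth. The difference of the chaperone score was -0.64 over all cells of these groups, and 0.56 in those with 3000 to 4500 genes detected. Only 7 cells without a state and 10 of Multi-Lin-1 were left. There 4 members were higher by at least 1 (P4hb, Hspa5, Sdf2l1 and Dnajb11), against 18.2% of genes. Lower by at least 1 was 1 member (Pdia6, -1.40), against 20.6% of genes. Hspa5 turned to 1.68 and Hsp90b1 to 0.74. Without the 3 cells in which 1 gene held over 10% of TPM, 5 members were lower by at least 1, against 10.1% of genes. Pdia3 (-1.07) was the fifth. The erythroid and megakaryocyte markers had a summed TPM of 0 to 17095 (median 916) in cells without a state and 0.5 to 6593 (median 633) in Multi-Lin-1, with 2 of 10 in at least 50% of the cells of both. Mast cell and basophil markers differed more: 4 of 7 were in at least 50% of cells without a state and 2 in Multi-Lin-1, with a summed TPM of 0.58 to 78857 (median 2781) in cells without a state and 0 to 9026 (median 996) in Multi-Lin-1. Of 5 mast cell, basophil and eosinophil granule genes compared, 3 were higher by at least 1 in cells without a state, Mcpt8 (3.53), Prss34 (2.49) and Prg2 (1.68), and 0 lower. The stem and multipotent cell markers had a median of 185 in cells without a state and 695 in Multi-Lin-1. The part of these lists was not tested.

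The relation to the granule protein genes was then followed from cell to cell. Over the 96 cells, which share 1 sample and differ in depth, the chaperone score had a Spearman's rho of 0.82 with the granule score (Pearson's r 0.82). Of the members, 10 of 10 had a rho of at least 0.4 with it, against 5.2% of genes, and their median rho was 0.55, beside 0.15 for all genes. Sdf2l1 had the highest at 0.69, then Pdia3 and Calr at 0.64, Hspa5 at 0.60, Pdia6 at 0.58, P4hb at 0.52, Pdia4 at 0.51, Hsp90b1 at 0.48, Dnajb11 at 0.46 and Canx at 0.44. In cells numbered 078 the rho of the score was 0.79, with 9 members at 0.4 or more (7.43% of genes), and in those numbered 079 it was 0.81, also with 9 (10.5% of genes). In the 69 cells with a state it was 0.80, with 7 members at 0.4 or more (5.59% of genes).

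Depth moves with both scores: the rho with genes detected was 0.69 for the chaperone score and 0.71 for the granule score. Of the members, 6 had a rho of at least 0.4 with genes detected, against 11.4% of genes, from Sdf2l1 (0.61) to Dnajb11 (0.43). After every gene was adjusted for genes detected and label number, the rho of the 2 scores was 0.66, and 4 members kept a rho of at least 0.4 with the granule score, against 0.559% of genes. These were Calr (0.62), Sdf2l1 (0.51), Pdia3 (0.44) and Hspa5 (0.40).

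**Figure D3:**
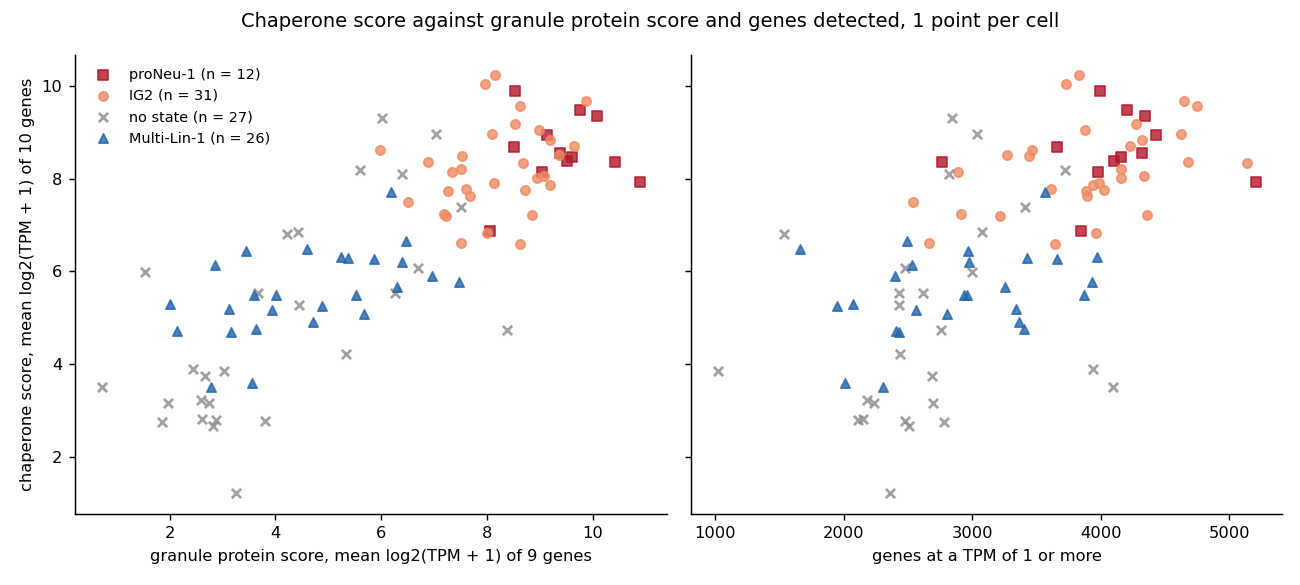
Chaperone score against the granule score (left) and against genes detected (right), 1 point per cell, for proNeu-1 (squares), IG2 (circles), no state (crosses) and Multi-Lin-1 (triangles). The IG2 and proNeu-1 cells lie towards the upper right of the left panel, and 24 of 26 Multi-Lin-1 cells have a chaperone score below the lowest IG2 cell. In the right panel the groups overlap in genes detected. These ran from 2768 to 5203 in proNeu-1, 2540 to 5133 in IG2, 1019 to 4093 in no state and 1660 to 3973 in Multi-Lin-1.

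Within each state, and in cells without one, the relation of the scores was smaller than over all cells. Within proNeu-1 (12 cells) the rho of the scores was -0.035, with 0 members at 0.4 or more (11.1% of genes). Within IG2 (31 cells) it was 0.32, with 2 members at 0.4 or more (4.01% of genes), Pdia3 at 0.57 and Calr at 0.45. Sdf2l1, the first of the members over all cells, had -0.16 within IG2. Within Multi-Lin-1 (26 cells) the rho of the scores was 0.53, with 1 member, Calr at 0.50 (4.86% of genes). Cells without a state (27) had 0.64, with 8 members at 0.4 or more (3.57% of genes), all but P4hb (0.08) and Canx (0.14).

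**Figure D4:**
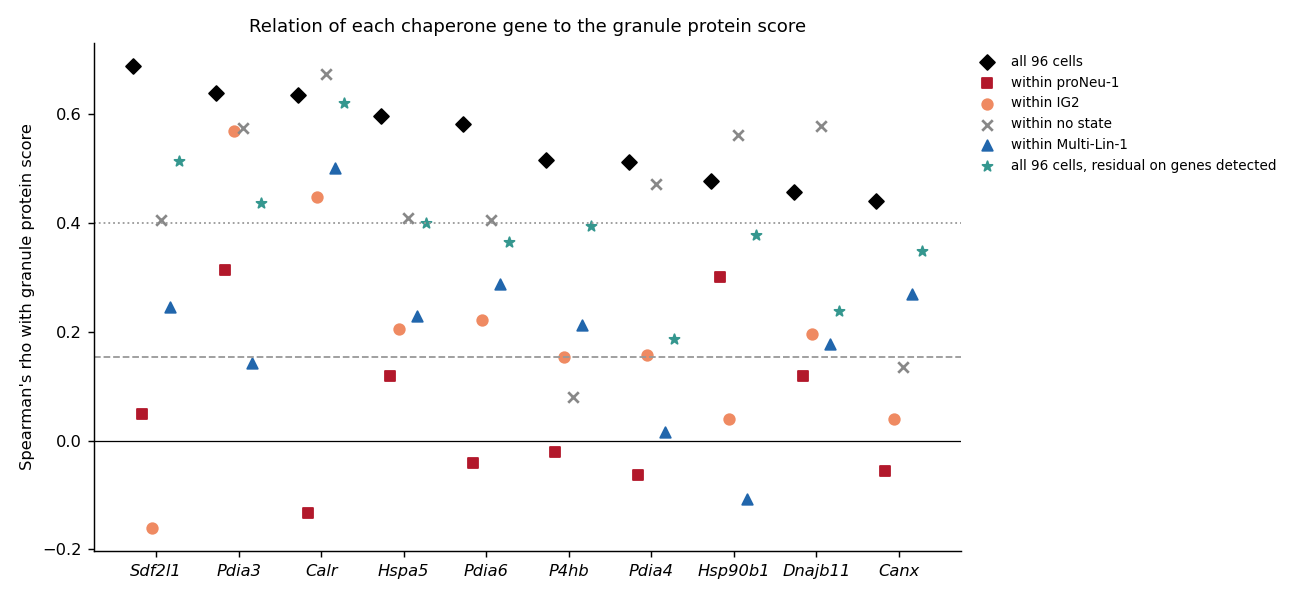
Spearman's rho of each member with the granule score over all 96 cells (black diamonds), within each group of cells, and over all cells after adjustment for genes detected and label number (stars). The dotted line marks 0.4 and the dashed line the median of all genes over all cells, 0.15; all 10 diamonds lie above 0.4, and 4 stars reach it.

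Single granule genes did not share the relation equally. Over all cells the chaperone score had a rho of 0.85 with Mpo, 0.77 with Prtn3, 0.75 with Ctsg and 0.73 with Elane. It had 0.54 with Prss57, 0.29 with Ctsc, 0.20 with Fcnb, 0.16 with Srgn, which encodes the granule proteoglycan serglycin, and 0.08 with Lyz2, the lysozyme gene. Within Multi-Lin-1 the value was 0.58 for Ctsg and 0.56 for Lyz2, but -0.34 for Elane, and within cells without a state it was 0.76 for Mpo. Within IG2 it was 0.39 for Mpo, 0.30 for Prtn3, 0.29 for Ctsg and 0.26 for Elane. Over the 9 genes it ran from -0.38 (Prss57) to 0.57 (Ctsg) within proNeu-1. Among all genes outside the members, the 5 whose levels followed the chaperone score most closely over 96 cells, with the same sign in both label numbers, were Mpo, Prtn3, Ctsg, Elane and Rgcc (0.72), a regulator of the cell cycle.

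By the same rule, Mpo was the gene most like 6 members: Sdf2l1 (rho 0.71), Hspa5 (0.65), Pdia3 (0.62), Pdia6 (0.61), Hsp90b1 (0.56) and P4hb (0.56). Ctsg was most like Calr (0.70) and Canx (0.49). The 2 exceptions were Pdia4, whose closest gene was Impdh1 (0.54), an enzyme of guanine nucleotide synthesis, and Dnajb11, whose closest was the cell cycle transcription factor gene Mybl2 (0.55). They were also the members with the lowest mean levels. These values are over all cells, across groups, and are not adjusted for depth. Within IG2 the rho of the 6 members with Mpo ran from -0.11 (Sdf2l1) to 0.51 (Pdia3). It ran from -0.02 (Pdia3) to 0.27 (Hspa5) within Multi-Lin-1 and from -0.11 (Pdia3) to 0.69 (Pdia6) within proNeu-1. In cells without a state it ran from 0.23 (P4hb) to 0.75 (Hsp90b1).

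The members followed one another as well. Of their 45 pairs, 28 had a rho of at least 0.4 over the 96 cells, against 0.114% of all pairs of genes, with a median of 0.44. Calr and Hspa5 were closest at 0.59, and Canx and Dnajb11 farthest at 0.17. Calr had the highest median rho with the other members (0.55) and Canx the lowest (0.35). After adjustment for genes detected and label number, 5 pairs were left at 0.4 or more and the median was 0.28. The share of all pairs was not computed after adjustment or within groups, so nothing is read from the pair counts there. Within cells without a state the median was 0.43, and within proNeu-1 it was 0.24 and within IG2 0.28. Within Multi-Lin-1 (26 cells) it was -0.006, with 21 of 45 pairs above 0 and 2 at 0.4 or more.

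The neighbouring steps of the secretory pathway gave context to the comparison of IG2 with Multi-Lin-1, in which 31.1% of all genes were higher by at least 1. All 13 genes of glycosylation and glucose trimming were higher by at least 1 in IG2 (median 2.36), among them Rpn1 (4.33), Rpn2 (3.60) and Ddost (2.93), subunits of the enzyme that attaches sugar chains. Of 15 genes of ER entry 12 were higher (median 1.83), with the translocon subunit Sec61a1 at 4.71. Of 19 other ER folding genes detected often enough, 13 were higher and 1, Prdx4, was lower (median 1.41). Manf, which binds BiP, was at 3.38. Of 9 genes of ER-associated degradation 6 were higher (median 1.04), Derl2 with 2.02. Of 2 receptors that return escaped ER proteins, Kdelr2 was higher (1.52) and Kdelr1 was at 0.61.

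The regulators of the unfolded protein response were less uniform. Of 10, 4 were higher by at least 1 in IG2 (median 0.78), a share near that of all genes (31.1%), so nothing is read from the count. The 4 were Atf4 (2.19), Xbp1 (2.03), Asns (2.01), a target of ATF4, and Atf6b (1.14). Ddit3, the stress-induced gene of CHOP, averaged 0.66 ± 1.92 in IG2 and 0.84 ± 1.91 in Multi-Lin-1, a difference of -0.18. Atf6 had -0.47, Eif2ak3, which encodes the stress sensor PERK, -0.03, and Ern1, which encodes the sensor IRE1, 0.58. These differences rest on few cells: of 96, Atf6 was detected in 19, Ddit3 in 14, Eif2ak3 in 14 and Ern1 in 11. Trib3 was listed at 0 in all cells of both states.

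Chaperones outside the ER were also higher in IG2: 10 of 14 in the cytosol (median 2.09), with Stip1 at 3.15 and Cct8 at 2.89, and 5 of 5 in mitochondria (median 2.61), with Hspd1 at 2.53. Housekeeping genes had 4 of 10 and a median of 0.53, equal to that of all genes, of which 31.1% were higher. Differences of like size were thus seen in chaperones of other compartments.

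**Figure D5:**
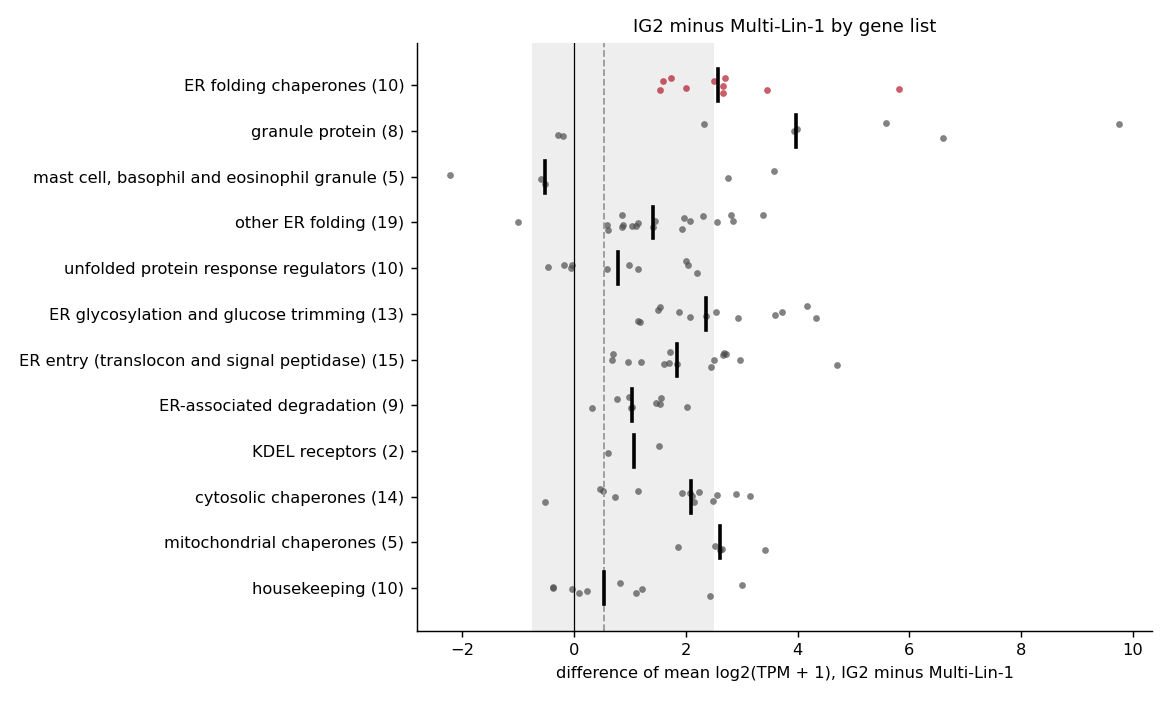
Difference of mean log2(TPM + 1), IG2 minus Multi-Lin-1, for each gene (dots) of each list that was detected in at least 10% of cells, with its number in brackets and the list median as a black bar. The grey band spans the 5th to 95th percentile of all 8044 genes and the dashed line is their median, 0.53; all 10 ER folding chaperones lie right of 1.5, as do all 5 mitochondrial chaperones.

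The relation to the granule score was not shared in the same way. Beside 10 of 10 members, a rho of at least 0.4 with that score, which 5.2% of all genes had, was reached by 7 of 13 glycosylation genes (median 0.42), 7 of 19 other ER folding genes (0.33), 3 of 15 genes of ER entry (0.36) and 1 of 9 of ER-associated degradation (0.30). It was reached by 1 of 10 regulators of the unfolded protein response (0.16), 1 of 2 of the receptors, 1 of 14 cytosolic chaperones (0.15), 0 of 5 mitochondrial ones (0.36) and 0 of 10 housekeeping genes (0.15). After adjustment for genes detected and label number, the members had 4 of 10 and each of those 9 lists had 0. The mast cell, basophil and eosinophil granule list had 1 of 5 both before and after it (median -0.01 and 0.10). Whether the lists differ in this was not tested.

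Splicing was a readout that the choice of members did not use. It was deposited as PSI (percent spliced in), the use of a junction as a fraction, with no read counts, so the depth behind each value is unknown. The members had 89 events with a value in at least 20 cells, of which 71 are annotated as intron retention, and all 89 lie inside the genes' bounds. A mean PSI from 0.1 to 0.9 was seen for 0 of 89, against 11.3% of all 19295 such events. The shares are not of like events, as the 19295 are of every type. Events of 1 gene are also not independent, and Canx alone holds 25 of the 89. The event farthest from 0 or 1 was the splicing of the intron between exons 5 and 6 of Hspa5, on chromosome 2 from 34775233 to 34775551, against its retention. Its mean PSI was 0.909 over 63 cells: 53 cells had 1, 2 had 0 and 8 had a value between. By group its mean was 1 in proNeu-1 (11 cells), 0.918 in IG2 (29 cells), 0.9 in cells without a state (10 cells) and 0.822 in Multi-Lin-1 (13 cells). For an alternative 5′ splice site at the first intron of Canx, on chromosome 11 from 50311784 to 50325493, the mean was 0.920 over 34 cells, of which 27 had 1.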

How the data were processed

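Expression of 96 ThPOK-/- GMP was deposited by the authors as log2 values. Raising 2 to each value and subtracting 1 gave values that sum to 1e+06 in every cell, so they were read as log2(TPM + 1). Splicing was deposited by the authors as PSI fractions for 80855 events. The submitters' processing notes name mm9, mm10, STAR, Bowtie2 and RSEM without version or role. Without a label to map them, 1142 PSI columns and 511 deposited state assignments were not used here.

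The members and lists were chosen with earlier results of these data known. A gene was compared if detected, at a TPM of 1, in at least 10% of cells (8044 genes), and a difference of 1 or a rho of 0.4 was counted. Such counts are descriptions beside the share of all genes, not tests. A score is the mean log2 value of a list. 12 gene lists and 10 marker lists were used, of which 4 genes are not in the table. Named genes are members, genes of the lists, and those most alike by rho. TPM keeps no depth, and doublets were not called, as callers need counts. A 0 may be a failed estimate. No molecular identifiers are given, and intervals cover counting of cells only. No pair of cells was identical. The alternatives tried were other pseudocounts, detection levels, filters and scalings, label numbers, like depth, adjustment by linear regression for genes detected and label number, medians and, chosen after seeing the data, mean TPM, 4 granule genes and leaving out 3 cells. Protein sequences were not used here. 1 of the marker lists is not reported here. The calculation was tested on simulated data. Software was SciPy 1.17.1, pandas 2.3.3, matplotlib 3.10.9, NumPy 2.4.6 and Python 3.11.15.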

Additional observations from a re-analysis of the deposited data

How the results depend on the processing

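No paired analysis was possible because there is 1 sample and its cells carry no pairing. Of the recomputed summary values, 121 stayed within the spread over cells or within 1.5 times the value given, 25 moved and 2 reversed; of those of single members, 401 stayed, 28 moved and 11 reversed. Of those that stayed within the spread, 1 summary value and 15 of single members changed sign: the summary value was the score difference of no state minus Multi-Lin-1, -0.64 and at like depth 0.56. IG2 minus Multi-Lin-1: the score difference of 2.66 became 1.09 after adjustment for genes detected and label number. There 3 members were at 1 or more in place of 10 (6.9% of genes). On mean TPM the difference was 1.17, with 6 members (25.9% of genes). proNeu-1 minus IG2: the members higher were 0 with a pseudocount of 10 (4.33% of genes) and on mean TPM (13.6%). They were 2 in cells with 3000 to 4500 genes detected (16.3%). No state minus Multi-Lin-1: the members lower were 2 with a pseudocount of 10 (3.32% of genes), after the adjustment (8.14%) and on mean TPM (25.8%). They were 1 when centred on housekeeping genes (5.53%) and 1 at like depth (20.6%). The members higher were 1 when centred (13.7% of genes), 1 in cells numbered 079 (10.8%) and 4 at like depth (18.2%). There Hspa5 reversed to 1.68 and Hsp90b1 to 0.74, and Hsp90b1 reversed to 0.48 in cells numbered 078 and to 0.16 by the median over cells.

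For the granule score, the rho of the chaperone score was -0.035 within proNeu-1 (0 members at 0.4 or more), 0.32 within IG2 (2 members) and 0.53 within Multi-Lin-1 (1 member). The members at 0.4 or more were 4 after the adjustment (0.559% of genes) and 6 when centred (1.65%). Reversed single members were Calr (-0.13), Canx (-0.056), Pdia4 (-0.063), Pdia6 (-0.042) and P4hb (-0.021) in proNeu-1, Sdf2l1 (-0.16) in IG2 and Hsp90b1 (-0.11) in Multi-Lin-1. The median rho between members was 0.24 within proNeu-1, 0.28 within IG2, -0.00604 within Multi-Lin-1 and 0.28 after the adjustment. The cause of these changes was not tested. Leaving out 3 cells with 1 gene over 10% of TPM moved none of these values beyond those bounds. Depth is known only through genes detected, and 12 proNeu-1 cells limit the values within that state.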

Other observations

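Outside the members, 32 genes had an ERSE in a RefSeq promoter, and 24 of them are in the expression table. Only 4 were detected in at least 10% of cells, and all 4 were higher by at least 1 in IG2 than in Multi-Lin-1, which held for 31.1% of genes. They were Creld2 (2.31), an ER protein of the unfolded protein response, Dnajc3 (1.92), an ER cochaperone, Hnrnpa3 (1.12), an RNA-binding protein, and Syvn1 (1.02), a ubiquitin ligase of ER-associated degradation. Creld2, Dnajc3 and Syvn1 were also in the lists above. No test was made on 4 genes.

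The 7 genes of the mast cell, basophil and eosinophil granule list differed in how they followed the chaperone score. Within cells without a state (27 cells) the rho was 0.65 for Mcpt8, a basophil protease, 0.58 for Hdc, which makes histamine, 0.52 for Prss34, another basophil protease, and 0.44 for Cpa3, the mast cell carboxypeptidase. It was 0.18 for Prg2, 0.02 for Epx and -0.44 for Gzmb in the same cells. Within Multi-Lin-1 (26 cells) it was 0.60 for Hdc, 0.58 for Cpa3, 0.46 for Mcpt8, 0.27 for Prss34, 0.27 for Prg2, 0.13 for Epx and -0.31 for Gzmb. A rho of at least 0.4 was thus reached by 4 of 7 in cells without a state, where 4.82% of all genes outside the members did, and by 3 of 7 in Multi-Lin-1, where 3.91% did. Within IG2 (31 cells) 0 of 7 reached it, beside 3.27% of genes. The highest there was 0.17 for Epx and the lowest -0.26 for Gzmb. But Epx was detected in 1 IG2 cell and Gzmb in 0, so their values mostly rank levels below detection. Leaving both out, the highest in IG2 was 0.14 for Hdc and the lowest -0.12 for Cpa3. Epx was detected in 2 cells without a state and 0 of Multi-Lin-1, and Gzmb in 4 and 2. Over all 96 cells Epx was detected in 3 and Gzmb in 6, too few to be among the genes compared. These values of rho are descriptions of cells of 1 sample, given after they were seen, and the difference between groups was not tested.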
